A study of Mus musculus with 2 samples.

Results

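The 9 genes described here, Pdcd1, Lag3, Ctla4, Tigit, Havcr2, Icos, Tox, Zfp683 and Cd69, encode receptors and regulators that restrain or activate lymphocytes or mark lymphocytes that stay in a tissue. They were chosen by name, and all 9 had a row among the 20140 genes of the tables. Their levels were read mainly in the natural killer-like and T cell-like clusters of cells from mouse salivary glands and set beside the other 10 clusters. The glands came from 14-week-old female mice of strain C57BL6/J and had been ligated, with a metal clip on the main ducts for 14 days, or had undergone mock surgery, in which the ducts were found but not clipped, 14 days before harvest. Each condition was 1 droplet library (10X Genomics) made from 2 submandibular and sublingual glands, and how many mice the glands came from is not given in the sources used here. Cells carrying EpCAM (epithelial) or Ter119 (red blood cell lineage) and dead cells had been depleted, and lymphocytes had not been selected. No replicate spread could be measured from 1 library a condition, so there was no test, and each difference describes these 2 libraries.

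Checkpoint receptors sit on T cells and natural killer cells and dampen their activity when a ligand on another cell engages them. PD-1 (Pdcd1), LAG-3, CTLA-4, TIGIT and TIM-3 (Havcr2) belong to this group, and ICOS is a related receptor that stimulates T cells. TOX is a nuclear factor needed for natural killer cell development and for the persistence of T cells under chronic stimulation, Hobit (Zfp683) is a transcription factor of tissue-resident lymphocytes, and CD69 is an early activation protein that also holds lymphocytes in tissue by antagonising the egress receptor S1PR1. The salivary gland is known for resident natural killer-type innate lymphocytes and, after viral infection, for resident CD8 T cells.

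Levels are means over the cells of a cluster, given as the gene's UMIs (captured RNA molecules) in every 10000 of the cell. Cell numbers recovered from the means came to 11406 ligated and 4199 mock cells. Natural killer-like cluster 1 held 3353 ligated cells, 29.4% of that library (exact Clopper-Pearson 95% interval 28.6 to 30.2), and 679 mock cells, 16.2% (15.1 to 17.3). T cell-like cluster 2 held 1393 ligated cells, 12.2% (11.6 to 12.8), and 155 mock cells, 3.69% (3.14 to 4.31). The intervals of these shares cover the sampling of cells within 1 library only, not the spread between glands or preparations. Of the 12 T cell markers, 11 were highest in cluster 2, and of the 11 natural killer markers, 10 were highest in cluster 1. All 11 natural killer markers were also detected in cluster 2, where they summed to 41.7 after ligation and 35.3 after mock surgery, against 68.9 and 74.4 in cluster 1. The 12 T cell markers summed to 8.06 and 7.75 in cluster 1 and to 72.6 and 55.2 in cluster 2. Of 8 B cell markers, 2 were detected in cluster 1, where the list summed to 3.40 after ligation and 2.67 after mock surgery, and 3 in cluster 2, with sums of 1.62 and 1.78. The defining B cell gene Ms4a1 was listed at 0 in both clusters. Each level below carries an approximate exact Poisson 95% interval in parentheses, made from the level, the cell number and the median recovered UMI total of the cluster (8313 ligated and 8032.5 mock in cluster 1, 7546 and 6268.5 in cluster 2). These intervals and the floors below cover counting error only and may be too narrow, because deep cells are overrepresented among the recovered totals.

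The 9 genes lie on 5 chromosomes of GRCm38, and none shares exon sequence on its own strand with another gene in GENCODE M21. Ctla4 (chromosome 1, 60887000 to 60915832) and Icos (chromosome 1, 60977927 to 61000320) are neighbours on the same strand, 62094 bases apart with 0 protein-coding genes between them. Pdcd1 lies on the same chromosome at 94038305 to 94052553. Lag3 (124904361 to 124911705) and Cd69 (129267325 to 129275436) lie on chromosome 6. Tox (6686353 to 6991557) and Zfp683 (134053838 to 134058996) lie on chromosome 4, Havcr2 lies on chromosome 11 (46454935 to 46481255) and Tigit on chromosome 16 (43648867 to 43664146). An exon of Gm11802 overlaps Tox on the other strand, and whether the counting used strand is not given in the sources used here.

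Promoters of 4 of the 9 genes were matched in the RefSeq table (GRCm38.p6). The 250 bases upstream of the start are shown for 3 receptors that were each highest in a different one of the 9 clusters with at least 50 cells in both libraries: Pdcd1 (chr1:94052554-94052803, minus strand) in the T cell-like, Tigit (chr16:43664185-43664434, minus strand) in the natural killer-like and Havcr2 (chr11:46454681-46454930, plus strand) in the macrophage-like cluster. Capitals mark matches, on either strand, to GGAAA (the core bound by NFAT factors, which T cell receptor signalling activates), TGTGGT (a RUNX core), TGANTCA (AP-1) and AAAGGTCA (an Nr4a half-site).
Pdcd1: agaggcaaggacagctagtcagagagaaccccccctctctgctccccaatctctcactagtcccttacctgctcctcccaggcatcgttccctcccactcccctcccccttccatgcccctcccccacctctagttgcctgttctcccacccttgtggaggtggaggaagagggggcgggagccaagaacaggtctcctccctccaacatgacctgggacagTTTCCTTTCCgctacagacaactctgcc
Tigit: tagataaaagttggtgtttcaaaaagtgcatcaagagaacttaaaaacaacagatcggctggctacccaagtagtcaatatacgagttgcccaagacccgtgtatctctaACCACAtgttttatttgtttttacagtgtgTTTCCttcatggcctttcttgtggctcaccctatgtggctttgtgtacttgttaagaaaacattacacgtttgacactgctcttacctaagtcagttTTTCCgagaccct
Havcr2: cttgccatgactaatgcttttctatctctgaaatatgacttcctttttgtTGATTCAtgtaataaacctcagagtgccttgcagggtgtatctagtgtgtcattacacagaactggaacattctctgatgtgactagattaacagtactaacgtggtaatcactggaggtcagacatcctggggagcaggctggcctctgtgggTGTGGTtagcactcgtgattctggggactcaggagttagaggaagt
Pdcd1 held 2 NFAT cores, at 28 and 23 bases before the start. Tigit held 2 NFAT cores, at 110 and 13 bases, and 1 RUNX core at 140 bases. Havcr2 held 1 AP-1 match at 200 bases and 1 RUNX core at 46 bases. Ctla4, not shown, held 1 NFAT core at 144 bases, and none of the 4 held the Nr4a half-site. Of 32817 promoters of the same length, 55.6% held the NFAT core, 14.0% the RUNX core, 6.75% the AP-1 motif and 1.34% the Nr4a half-site. The matches describe the letters in these windows, and no binding was measured.

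Pdcd1 stood at 0.523 (0.480 to 0.569) in the ligated and 0.207 (0.126 to 0.318) in the mock cells of T cell-like cluster 2. The mock value rests on about 20 UMIs. The intervals did not overlap, and the ratio was 2.52 (counting interval 1.63 to 4.19). In natural killer-like cluster 1 it was near the floor, at 0.0104 from about 29 UMIs after ligation and 0.000713 from about 1 UMI after mock surgery. The ligated value there was 13.1% of the library mean and the mock value 8.23%. Markers of stromal, epithelial and myeloid cells stood in the same cells at medians of 7.37% and 1.91% of their library means. The part of RNA from other cells in these levels of Pdcd1 was not tested. The T cell-like level was 50.3 times the natural killer-like level after ligation (34.6 to 75.8).

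Lag3, a receptor for class II antigen-presenting molecules, was detected in both lymphocyte clusters. T cell-like cells stood at 0.422 (0.384 to 0.464) after ligation and 0.138 (0.0712 to 0.229) after mock surgery, a ratio of 3.05 (1.83 to 5.98). Natural killer-like cells stood at 0.247 (0.228 to 0.266) and 0.176 (0.143 to 0.215), a ratio of 1.40 (1.13 to 1.75). The clusters were apart in 1 library. Ligated T cell-like cells were 1.71 times above ligated natural killer-like cells (1.52 to 1.93), while in the mock library the interval of that ratio, 0.391 to 1.36, included 1.

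Ctla4, which competes with the costimulatory receptor CD28 for its ligands, stood at 0.133 (0.111 to 0.156) in ligated and 0.115 (0.0565 to 0.203) in mock T cell-like cells. In natural killer-like cells it stood at 0.0123 (0.00845 to 0.0170) and 0.0195 (0.0101 to 0.0361). The intervals of the libraries overlapped in both clusters. Regulatory T cells carry much Ctla4, and their defining factor Foxp3 stood at 0.0236 in ligated T cell-like cells and was listed at 0 in every mock cluster, so its 2 libraries cannot be compared.

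Among the 9 clusters compared, Tigit had its highest level in natural killer-like cells, and it stood lower there after ligation. Cluster 8, with too few mock cells to compare, stood at 0.0677 after ligation from about 2 UMIs. In natural killer-like cells it was 0.0560 (0.0475 to 0.0655) after ligation and 0.0896 (0.0665 to 0.119) after mock surgery, a ratio of 0.625 (0.449 to 0.877). T cell-like cells stood at 0.0327 (0.0224 to 0.0452) and 0.0469 (0.0167 to 0.120), and the latter rests on about 5 UMIs. The T cell-like level was 0.584 times the natural killer-like level after ligation (0.387 to 0.842), and after mock surgery the interval of that ratio, 0.178 to 1.43, included 1.

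Havcr2, the gene of TIM-3, was highest in macrophage-like cluster 5, at 0.699 (0.641 to 0.760) after ligation and 0.495 (0.362 to 0.674) after mock surgery. Among T cell-like cells it stood at 0.0507 (0.0378 to 0.0660) after ligation and was listed at 0 after mock surgery. Of the 155 mock cells 0 had a UMI, which allows a share of cells with a UMI of up to 1.94% and sets no limit on the share that express the gene. Against a floor of 3 counts in that library the ligated level was at least 1.64-fold higher, and with the counting error of both libraries the lower limit of the ratio was 1.28. Macrophage markers summed to 1.39 and 0.206 in these cells, and their part in this level was not tested. Natural killer-like cells stood at 0.00650 after ligation and at 0 in the mock library, where 0 of 679 cells allow a share of cells with a UMI of up to 0.442%, and the lower limit of the ratio, 0.860, was under 1.

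**Figure D1:**
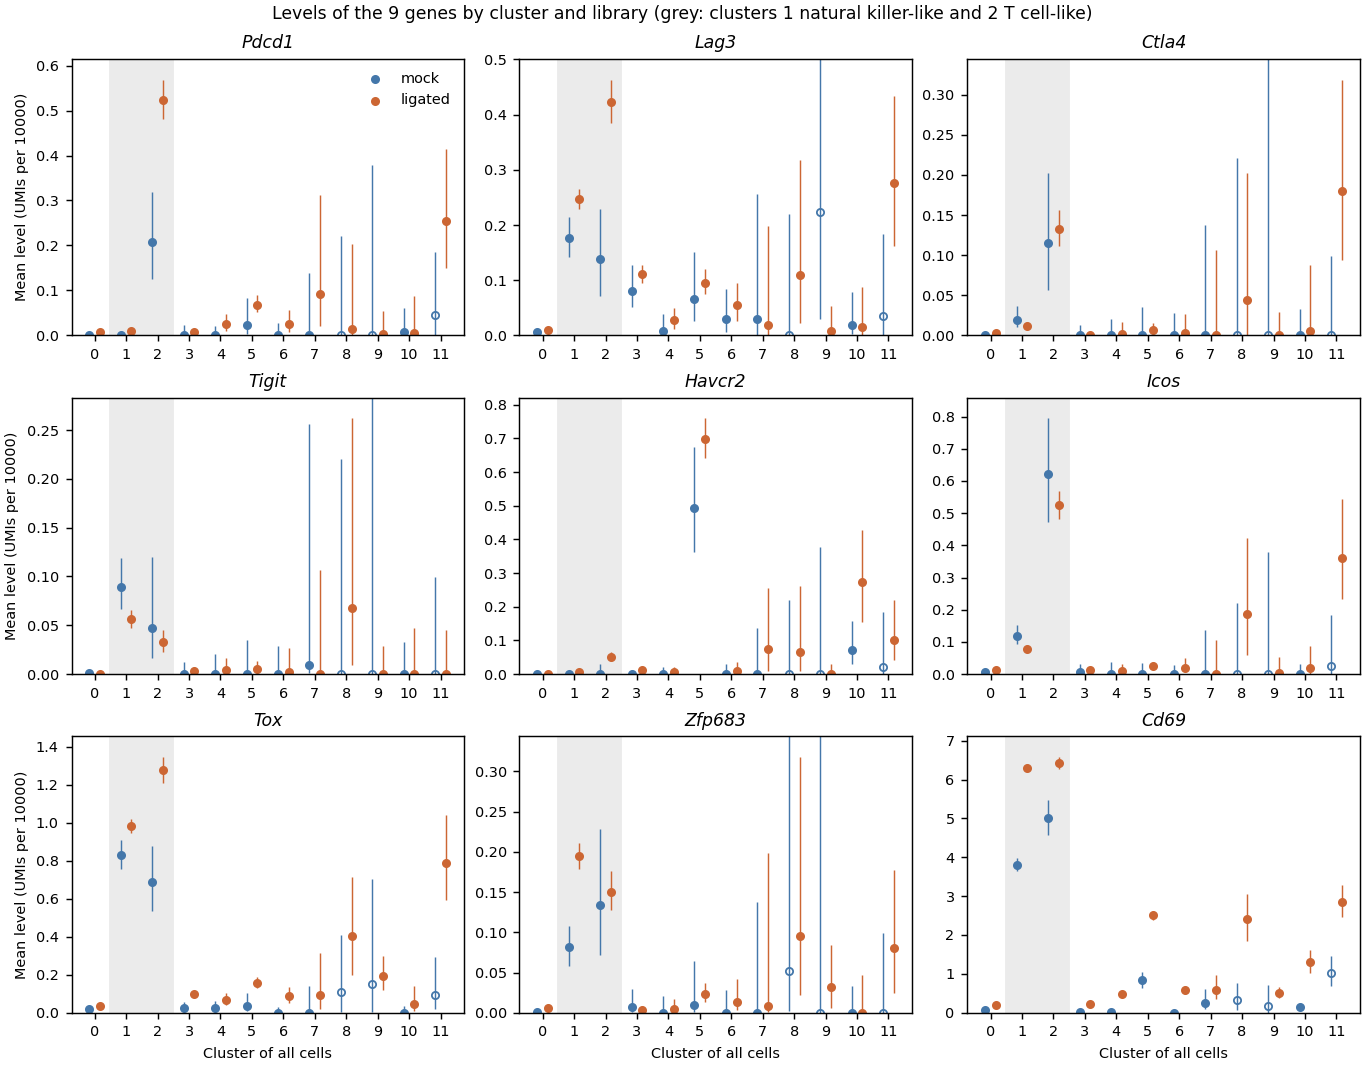
Mean level of each of the 9 genes (y axis, UMIs per 10000) in the 12 clusters of all cells (x axis), for the mock (blue) and ligated (orange) library; lines are approximate counting intervals, reaching to 3 counts where the level is 0 and in places past the panel, and open circles are clusters with under 50 cells in that library. Pdcd1 reached 0.523 in ligated cells of cluster 2, and Havcr2 0.699 in cluster 5.

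Icos, the costimulatory receptor among the 9, stood slightly lower in the ligated library in both lymphocyte clusters. T cell-like cells were at 0.524 (0.480 to 0.569) against 0.621 (0.471 to 0.795) in the mock library, and these intervals overlapped. Natural killer-like cells were at 0.0787 (0.0685 to 0.0897) against 0.119 (0.0920 to 0.152), a ratio of 0.664 (0.498 to 0.884). Group 2 innate lymphoid cells also carry Icos, and 3 of their 6 markers were detected in cluster 1, where the list summed to 0.897 after ligation and 1.87 after mock surgery, and 2 in cluster 2, with sums of 0.999 and 1.495. Il1rl1, a defining receptor of that list, stood at 0.0749 and 0.423 in cluster 1, and the part of these markers in the level of Icos was not tested. The T cell-like level was 6.65 times the natural killer-like level after ligation and 5.24 times after mock surgery.

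Tox was detected in both lymphocyte clusters, with T cell-like cells at 1.28 (1.21 to 1.35) after ligation and 0.686 (0.534 to 0.876) after mock surgery. That was a ratio of 1.86 (1.45 to 2.40). Natural killer-like cells stood at 0.982 (0.945 to 1.02) and 0.831 (0.756 to 0.911), a ratio of 1.18 (1.07 to 1.31). As with Lag3, T cell-like cells were the higher cluster in the ligated library (ratio 1.30, interval 1.22 to 1.39), while in the mock library the interval of the ratio, 0.633 to 1.07, included 1.

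Zfp683 differed between the libraries in the natural killer-like cluster, at 0.194 (0.178 to 0.211) in ligated and 0.0815 (0.0586 to 0.108) in mock cells, a ratio of 2.38 (1.77 to 3.35). T cell-like cells stood at 0.150 (0.128 to 0.176) and 0.134 (0.0712 to 0.229), with overlapping intervals.

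Cd69 stood at 6.31 (6.21 to 6.40) in ligated and 3.80 (3.64 to 3.97) in mock natural killer-like cells, a ratio of 1.66 (1.58 to 1.74). T cell-like cells stood at 6.43 (6.28 to 6.58) and 5.00 (4.57 to 5.47), a ratio of 1.29 (1.17 to 1.41). The clusters were within counting error of each other after ligation and differed in the mock library (ratio 1.31, interval 1.19 to 1.45). Early response genes, which tissue dissociation can also induce, differed in direction from each other: in natural killer-like cells Jun stood at 8.86 after ligation and 5.89 after mock surgery, Fos at 3.01 and 3.58 and Egr1 at 0.654 and 0.662. In T cell-like cells Jun stood at 5.44 and 4.58 (difference 0.24), Fos at 2.63 and 3.62 (-0.45) and Egr1 at 0.841 and 0.557 (0.52). Their part in the level of Cd69 was not tested.

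A size rule took the place of a test: it asked for a level of 0.5 or more in either library and a difference of 1 or more in either direction. The difference is log2((ligated + 0.1)/(mock + 0.1)), a scale that understates differences of low genes. By this rule 1 of the 9 genes passed in T cell-like cluster 2, Pdcd1, with a difference of 1.02, against 0.785% of all 20140 genes and 5.34% of the 2958 genes with a higher level of at least 0.5. Of the 9 genes, 4 reached that level there. Pdcd1 was just inside the threshold, and with a pseudocount of 1 its difference was 0.33. Lag3 had a difference of 1.13 but a higher level under 0.5, and the difference of Tox was 0.81. In natural killer-like cluster 1, 0 of the 9 passed, against 0.655% of all genes and 4.56% of the 2896 genes at that level, which 2 of the 9 reached. The largest differences there were 0.71 for Cd69 and 0.70 for Zfp683. The shares of all genes given here and below include genes listed in 1 library only, and 0 of the 9 were such genes. Without them the number of genes past the rule fell from 158 to 87 in cluster 2 and from 132 to 60 in cluster 1.

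Over all 9 genes the median difference was 0.36 in cluster 2, with 7 genes higher and 2 (Tigit and Icos) lower in the ligated library. In cluster 1 it was 0.13, with 6 higher and 3 (Ctla4, Tigit and Icos) lower. The median over genes with a mean of at least 0.05 was -0.0085 in cluster 2 and -0.0028 in cluster 1, and 48.8% and 49.4% of these were higher in the ligated library. Of the 9 genes, 7 in cluster 2 and 6 in cluster 1 had such a mean, with medians of 0.36 and 0.27.

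**Figure D2:**
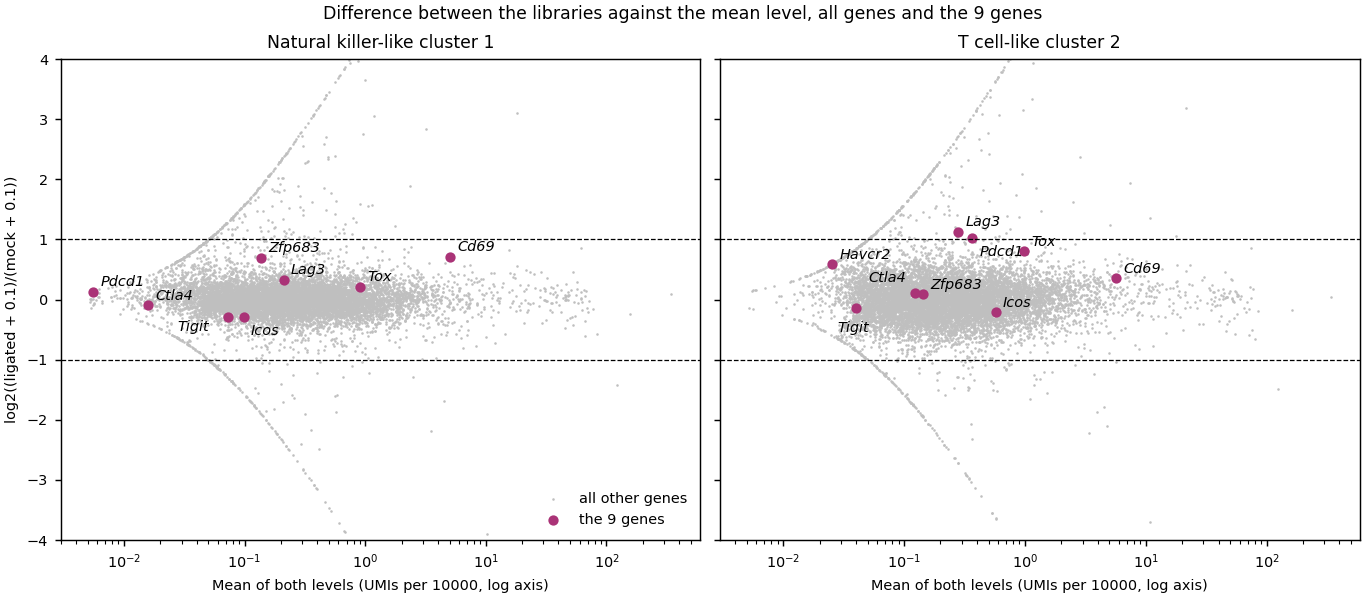
Difference between the libraries (y axis, log2 scale with 0.1 added to each level) against the mean of both levels (x axis, log scale) in the natural killer-like and T cell-like clusters; grey points are all other genes with a level of at least 0.05 in a lymphocyte column, purple points are the 9 genes (Havcr2 in cluster 1 is too low to be drawn), and dashed lines mark a size of 1 (differences beyond 4 in size are not drawn). Grey arcs are genes listed at 0 in 1 library. Lag3 and Pdcd1 lie above the upper line in cluster 2, at 1.13 and 1.02.

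Genes that define kinds of T cell also differed between the libraries within cluster 2. The CD8 coreceptor genes Cd8a and Cd8b1 stood at 4.22 and 7.14 after ligation and at 1.90 and 2.97 after mock surgery (differences 1.11 and 1.24). Trdc, the constant segment of the delta T cell receptor chain, stood at 0.973 and 2.37 (-1.20). Trac, the alpha constant segment, stood at 4.42 and 3.65 (0.27), Cd3e of the receptor complex at 7.57 and 5.88 (0.36), and Cd4 at 0.164 and 0.210 (-0.23). A mean over the cluster cannot tell a different mix of CD8 and gamma-delta T cells from a different level per cell, and the part of this mix in the levels of Pdcd1, Lag3 and Tox was not tested. In cluster 1, Eomes, a factor of conventional natural killer cells, stood at 0.829 after ligation and 1.71 after mock surgery (-0.96) beside the higher Zfp683 and Cd69.

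Most of the summed level of 8 of the 9 genes lay in the 2 lymphocyte clusters. The T cell-like cluster held 80.3% of all Pdcd1 after ligation and 88.4% after mock surgery. For Tigit the natural killer-like cluster held 71.7% and 83.1%, for Zfp683 68.7% and 68.1%, and for Cd69 61.5% and 69.7%. Lag3 was split, with 47.8% in natural killer-like and 34.0% in T cell-like cells of the ligated library and 61.5% and 11.1% in those of the mock library. Havcr2 was the exception. Macrophage-like cells held 72.7% of it after ligation and 82.1% after mock surgery, and the lymphocyte clusters together 14.1% and 0%.

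**Figure D3:**
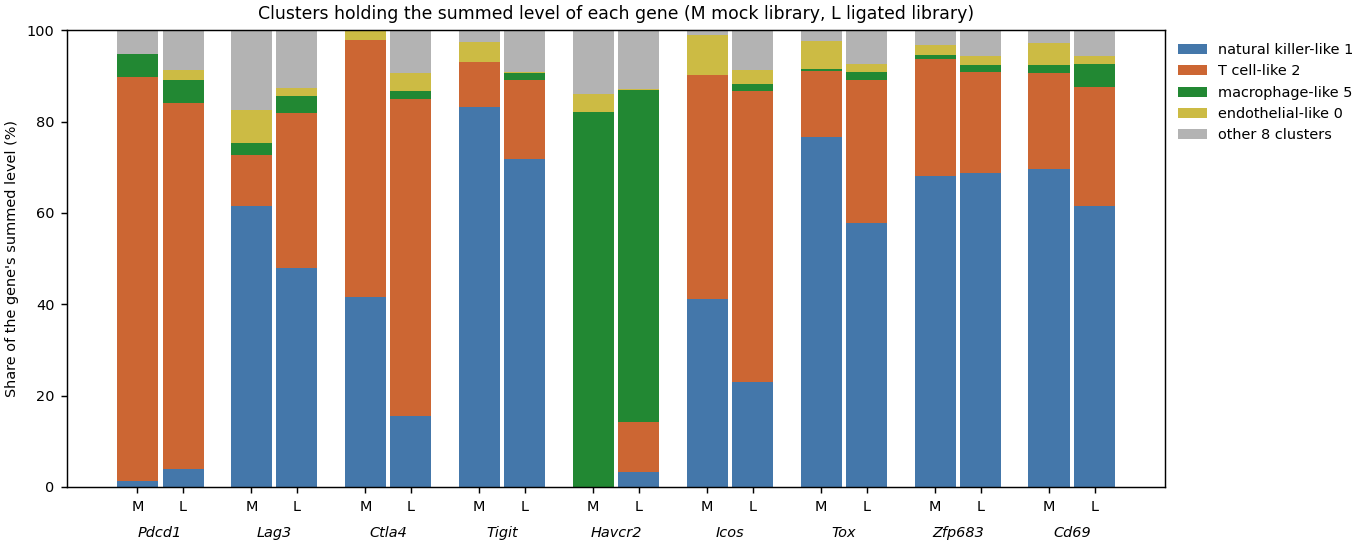
Share of each gene's summed level (y axis, percent of the library's sum over all cells) held by the natural killer-like, T cell-like, macrophage-like and endothelial-like clusters and by the other 8 clusters, in the mock (M) and ligated (L) library. T cell-like cells held 80.3% of Pdcd1 in the ligated library and macrophage-like cells 72.7% of Havcr2.

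Library means combine the level within clusters with the share of cells in each. The library mean of Cd69 was 3.01 after ligation and 0.883 after mock surgery, and reweighted to the mock shares of clusters (the mock mix) the ligated value was 1.57. Pdcd1 stood at 0.0796 and 0.00866, and at 0.0346 at the mock mix. For Icos the library means were 0.100 and 0.0466, and the ligated value at the mock mix was 0.0445, below the mock mean. Tigit likewise stood above the mock mean with the ligated mix (0.0230 against 0.0174) and below it with the mock mix (0.0113).

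Cd69 was higher in the ligated library in each of the 7 other clusters compared as well, with differences from 0.80 to 2.76. Lymphocyte marker genes, as a share of their library means, were higher there too. In ductal-like cluster 7 the ratio of Cd69, from about 17 and 6 UMIs, was 2.31. Its counting interval, 0.824 to 6.78, included 1. The direction was not particular to Cd69: all 9 genes were higher in the ligated library in clusters 4, 5 and 6, often from few UMIs. Cd69 stood at 0.577 in ligated mural-like cells of cluster 6 and was listed at 0 in mock ones, at least 20.2-fold higher against a floor of 3 counts, and with the counting error of both libraries the lower limit of the ratio was 16.2. It passed the size rule there (difference 2.76), as 1 of the 9 genes against 1.9% of all genes and 9.41% of genes with a higher level of at least 0.5. The ligated value was 19.1% of the library mean, and 22 markers of T and natural killer cells stood at a median of 20.6% of theirs in the same cells. In endothelial-like cluster 0, Cd69 stood at 0.210 and 0.0776, which was 6.97% and 8.79% of the library means, beside lymphocyte markers at 8.05% and 6.93%. In fibroblast-like cluster 3 it stood at 0.232 and 0.0178, or 7.70% and 2.02%, beside lymphocyte markers at 9.30% and 3.45%. In the second endothelial-like cluster it stood at 0.486 and, from about 1 UMI, 0.00747, a ratio of 65.1 (12.6 to 2820). That was 16.1% and 0.846% of the library means, beside lymphocyte markers at 13.0% and 6.54%, so the mock value lay below the markers. Cd69 was thus at about the same share of its library mean as other lymphocyte genes in the ligated cells of clusters 0, 3, 4 and 6, and the part of these markers in its level was not tested.

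Macrophage-like cells differed from these clusters. Cd69 stood at 2.51 (2.40 to 2.62) after ligation and 0.832 (0.645 to 1.04) after mock surgery (difference 1.48), and it was 1 of the 9 genes past the size rule, against 1.34% of all genes and 8.48% of genes with a higher level of at least 0.5. These levels were 83.2% and 94.2% of the library means, beside lymphocyte markers at medians of 31.5% and 17.2%. Tox stood there at 0.158 and 0.0329, or 31.6% and 18.8% of the library means, close to the lymphocyte markers. Pdcd1 and Lag3 lay above the marker medians, as Cd69 did. Pdcd1 was at 85.0% and, from about 2 mock UMIs, 273% of the library means. Lag3 was at 63.2% and, from about 6 mock UMIs, 143%. The ratio of Havcr2 in this cluster was 1.41 (1.02 to 1.95). In erythroid-like cluster 10, where 3.74% of all genes and 25.2% of genes with a higher level of at least 0.5 passed, Cd69 was again 1 of 9, at 1.30 and 0.146. That was 43.0% and 16.5% of the library means, above the lymphocyte markers at 14.8% and 1.07%. Macrophage markers summed to 50.9 and 23.7 in that cluster. Lag3 in fibroblast-like cells, at 0.111 and 0.0814, was 73.2% and 176% of the library means, above the lymphocyte markers there in both libraries.

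The other genes of these pathways were read from lists in which a gene entered where the mean of both levels was at least 0.05. Of 23 other inhibitory and costimulatory receptors, 22 entered in T cell-like cells, 13 higher and 9 lower after ligation, with a median difference of 0.071. In natural killer-like cells 18 entered, 9 in each direction. The 2 that passed the size rule in each cluster were Cd244a and Cd244, which are 1 gene listed under its current symbol in the ligated and its older symbol in the mock library. The counts and the median above hold it as 2 genes, 1 in each direction. Paired across symbols it stood at 2.46 and 1.89 in natural killer-like cells (0.36). Cd226, an activating receptor that competes with Tigit for ligands, stood at 3.12 and 1.65 in natural killer-like cells (0.88) and at 2.94 and 2.08 in T cell-like cells (0.48). Tnfrsf9 (4-1BB), a costimulatory receptor, stood at 1.45 and 1.21 in natural killer-like cells (0.25). Among the lower receptors in natural killer-like cells, Cd160 stood at 0.560 and 1.09 (-0.85) and Cd28 at 0.0658 and 0.182 (-0.76).

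Genes of tissue egress and circulation stood lower in the ligated T cell-like cells. Of 17 that entered, 14 were lower and 3 higher, with a median of -0.70, and the 3 past the size rule were all lower. These were Klf2, a factor that switches on egress receptors (1.61 after ligation and 3.54 after mock surgery, difference -1.09), Tcf7, a factor of naive and memory T cells (0.396 and 1.00, -1.16), and Satb1, a chromatin organiser (0.397 and 1.01, -1.16). S1pr1, the egress receptor that CD69 antagonises, stood at 0.430 and 0.890 (-0.90). Ly6c2, the highest gene of the list in these cells, was among the 3 higher, at 7.33 and 4.94 (0.56). In natural killer-like cells 13 entered, 10 lower and 3 higher, with a median of -0.23 and 0 past the rule. There S1pr1 was among the higher genes, at 0.0961 and 0.0639 (0.26).

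Genes of the residency programme were split in direction in the same cells. In T cell-like cells 12 of 26 were higher and 14 lower (median -0.051), and in natural killer-like cells 11 of 25 were higher and 14 lower (median -0.0075). Il7r, the interleukin 7 receptor, was the 1 gene past the rule in each, at 1.63 and 6.22 in T cell-like cells (-1.87) and 0.225 and 0.891 in natural killer-like cells (-1.61). Cxcr6, a chemokine receptor of resident lymphocytes, stood at 4.91 and 4.19 in T cell-like cells (0.23). Itga1, the CD49a integrin, stood at 4.33 and 3.63 in natural killer-like cells (0.25) but at 2.57 and 2.90 in T cell-like cells (-0.17). Among the lower genes, Runx3 stood at 3.81 and 5.10 in natural killer-like cells (-0.41) and Rgs1 at 7.66 and 9.75 in T cell-like cells (-0.35). Ccr2 was lower in both, at 1.95 and 3.99 in natural killer-like (-0.99) and 1.11 and 1.93 in T cell-like cells (-0.75). Itgae, the CD103 integrin, named after its values were seen, stood at 2.92 and 1.64 in natural killer-like cells (0.79) and at 1.34 and 0.968 in T cell-like cells (0.43).

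Among 19 transcription factors of exhaustion and activation that entered, 14 were lower in the ligated library in each lymphocyte cluster, with medians of -0.20 in T cell-like and -0.30 in natural killer-like cells. Past the rule were Maf (0.828 and 2.04, -1.20) and Tcf7 in T cell-like cells and 0 in natural killer-like cells. Genes of group 1 innate lymphoid cells had medians of -0.15 and -0.14. Gzmc, a granzyme, was the 1 gene of that list past the rule in each cluster, at 15.7 and 6.06 in T cell-like cells (1.36) and 46.5 and 23.2 in natural killer-like cells (1.00). Of the 12 regulatory T cell genes, 5 entered in T cell-like and 4 in natural killer-like cells, and 0 passed.

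**Figure D4:**
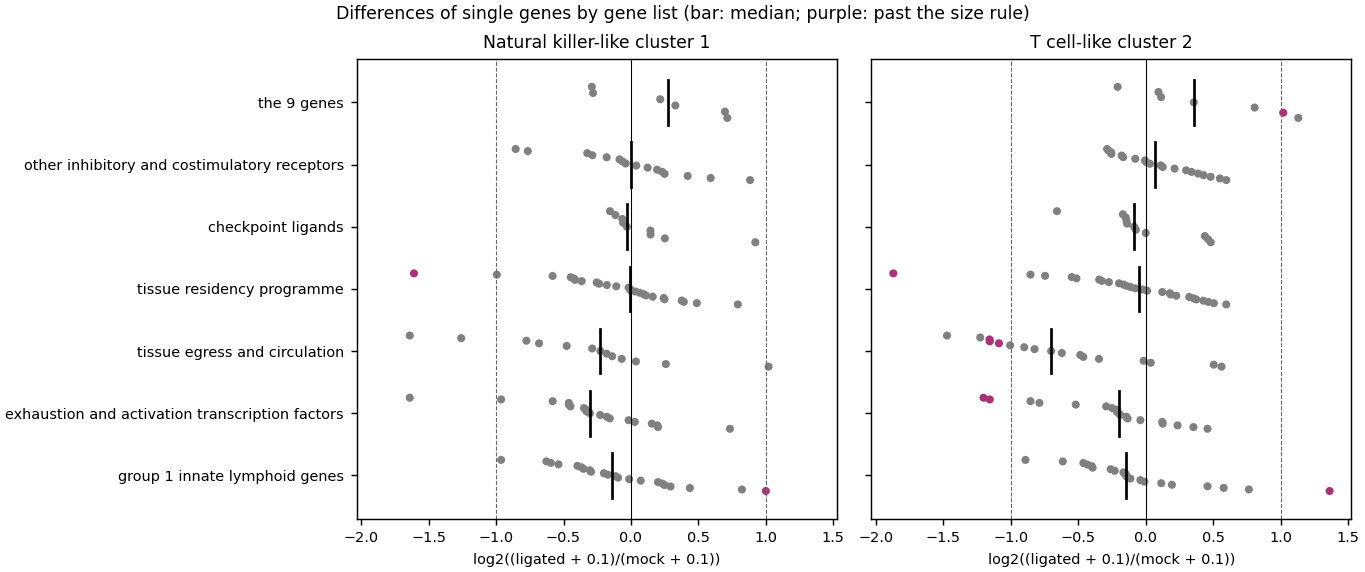
Difference between the libraries (x axis, log2 scale with 0.1 added) of single genes that entered from each list for the natural killer-like and T cell-like clusters; black bars are list medians, purple points passed the size rule, and Cd244 and Cd244a are left out. The egress and circulation list has its median at -0.70 in the T cell-like cluster.

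The ligand genes of these receptors were read across the clusters. Cd274 (PD-L1) was highest in endothelial-like cluster 0, at 0.278 after ligation and 0.333 after mock surgery (-0.20). Pdcd1lg2 (PD-L2) was highest in natural killer-like cells, at 0.244 and 0.211 (0.15). For Tigit, the ligand genes Pvr and Nectin2 were highest in cluster 0, where Pvr stood at 0.282 and 0.264 and Nectin2 at 0.374 and 0.156 (0.89). Cd86, a ligand of CTLA-4, was highest in macrophage-like cells, at 1.59 and 1.10 (0.49), and Cd80, the other, did not exceed 0.0292 in the cluster where it was highest. Icosl, the ligand of ICOS, was highest in macrophage-like cells as well, at 0.311 and 0.680 (-0.92). The list of 20 ligand genes also held partners of receptors outside the 9 genes, such as Tnfsf9, Cd200 and Cd48. Of these 20, 9 entered in natural killer-like and 11 in T cell-like cells, and 0 passed the size rule in either.

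For the 5 genes with a level of at least 0.5 in some column, the genes with the most similar pattern were found by Pearson's r of log2(level + 0.1) over the 24 columns of 12 clusters and 2 libraries, among 7968 genes. The columns share libraries and free RNA, so these values are descriptions. Pdcd1 was closest to Cd5 (0.95), Cd8a (0.94) and Tcrg-C2 (0.94), and Icos to Cd28 (0.98), Ifng (0.97) and Bcl11b (0.96). Tox was closest to Sla2, Sh2d2a and Cd226 (each 0.96), and Cd69 to Selplg (0.98), Rac2 (0.98) and Cd37 (0.97). Havcr2 was closest to Cd300c2 (0.97), Bcl2a1a (0.96) and Siglece (0.96). Within the 9 genes, Ctla4 and Icos had an r of 0.95 and Tox and Zfp683 of 0.93, while Havcr2 and Tigit stood at -0.14.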

How the data were processed

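Single-cell libraries from 1 ligated and 1 mock group were analysed, and the labels gave the groups. The authors deposited 4 tables of cluster means whose values are, judged by column sums of 10000, linear means of UMIs per 10000 UMIs of a cell; 2 of the tables cover a subset of cells. Cell Ranger 6.0.1, Seurat and build mm10 are named in the submitters' processing notes; cell filters, clustering and doublet handling are not given in the sources used here. Cell barcodes were not analysed here.

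Names of 21 genes turned into dates in the split tables were restored from the row order. Cell numbers came from the weight that joins split and joint means (tolerance 2e-09), and UMI totals from genes seen in 1 cell (whole within 1e-06, at least 2 genes agreeing). The recovery and the size rule were tested on simulated data. The tables hold no raw counts, so no count model was fitted. Differences were compared where both libraries had at least 50 cells, which left out clusters 8, 9 and 11. Members, lists and marker genes were chosen with earlier results of these data known. Named genes were the 9 members, list genes past the size rule (at most 8 per list and cluster) or among the 5 highest of a list, ligands of the members, T cell subset genes and the 3 most similar genes. Genes outside these were chosen after their values were seen. Alternatives were other pseudocounts (1 and 0.01), other thresholds, centring, leaving out genes listed in 1 library only, and subtraction of free RNA, taken as the library mean times the median share of other cells' markers (7.37% ligated and 1.91% mock in cluster 1, 8.41% and 3.05% in cluster 2). Python 3.11.15, numpy 2.4.6, pandas 2.3.3, scipy 1.17.1 and matplotlib 3.10.9 were used.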

Additional observations from a re-analysis of the deposited data

Results flagged for a closer look

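Some levels of the 9 genes stood above the mock value in columns that no comparison used, because under 50 mock cells were present. In cluster 8, led by acinar genes, Cd69 stood at 2.40 after ligation and 0.328 after mock surgery, and markers of T and natural killer cells stood at a median of 72.6% and 25.8% of their library means. In Schwann-like cluster 9, Cd69 stood at 0.503 and, from about 1 UMI, 0.179, beside such markers at 16.4% and 5.53%. The counting interval of that ratio, 0.683 to 160, included 1. In cluster 11, led by cell cycle and neutrophil genes, Cd69 stood at 2.84 and 1.03, beside such markers at 159% and 76.6%. Tox stood there at 0.786 and, from about 3 UMIs, 0.0924. The 2 libraries differed in cell type markers in this cluster. T cell markers summed to 43.0 after ligation and 6.88 after mock surgery, neutrophil markers to 0.00509 and 36.6, and endothelial markers to 6.06 and 42.4. In cluster 1 of the separately clustered subset that the deposited tables call after Pdgfr and Gli1, with 435 ligated and 14 mock cells, Cd69 stood at 3.94 and 3.11 and Tox at 0.691 and 0.525. In these mock cells 1 UMI in a cell of median depth is worth 0.0801, so the mock level of Tox rests on few UMIs. No counting interval was made for the subset. The part of the lymphocyte markers in the levels of all these columns was not tested.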

How the results depend on the processing

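No paired analysis was possible because each group is 1 library, and no replicate could be left out. Of the 72 differences of single members recomputed in the 2 lymphocyte clusters, 0 changed direction, and 1 lost its side of the size rule, Pdcd1 in T cell-like cells at a pseudocount of 1 (0.33). Most of these settings could not change a direction. Another pseudocount never does, and the centring shifts (-0.0021 in cluster 1 and 0.018 in cluster 2) were smaller than every member's main difference. Only the subtraction of free RNA could have done so. The number of the 9 genes past the rule in T cell-like cells was 0 with a pseudocount of 1, with a higher level of at least 2 and with a size of at least 2, and 2 (Lag3 and Pdcd1) without a minimum level; in natural killer-like cells it was 0 under each of the 6 alternatives. Of all genes, 132 (87 higher, 45 lower) passed in natural killer-like cells, which became 53 with a pseudocount of 1, 419 without a minimum level, 27 with a higher level of at least 2 and 60 without genes listed in 1 library only. In T cell-like cells 158 (91 and 67) became 56 (38 and 18), 431, 38 and 87 under the same settings, 95 (65 and 30) with a size of at least 2, and 158 (79 and 79) after subtraction of free RNA. The cell numbers of all 12 clusters were themselves taken from least squares weights, so repeating them with these weights was no check. In mock T cell-like cells 1 UMI in a cell of median depth is worth 0.0103, so levels near it, such as those of Tigit, cannot be compared closely at this depth.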
